A study of Mus musculus with 15 samples.

Results

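The Ly6 family was followed in mouse liver through 9 named genes, Ly6a, Ly6c1, Ly6c2, Ly6d, Ly6e, Ly6g, Ly6h, Ly6i and Ly6k, chosen as the array probes that carry one of these names and are not control spots. Of the 9 genes, 7 had a probe, and together they had 9 probes, among 22032 gene symbols on the array. Ly6c2 and Ly6g had no probe of that name and were not analysed here. The family was selected on Ly6a, which had been chosen by its difference between DEN-treated and control livers and by its spread between control livers, so those values are given as a description with no p. The fit over all genes includes Ly6a, so counts of members against group C include it. They are given beside the share of all genes called, and nothing is read from them.

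RNA of whole liver from CD1 male mice, an outbred stock, was measured on single-colour arrays. All groups received hydrodynamic gene delivery, a rapid injection that drives plasmid into a part of the liver cells, with 50 μg of plasmid from week 28 to week 34, and livers were taken at week 35. Mice of group C had been injected with saline, and those of groups T and G with diethyl nitrosamine (DEN, a carcinogen that causes liver tumours, given here at 25 μg per g on day 15 after birth). The plasmid was empty in groups C and T and expressed Gas1 in group G. The sample records give the age as 10 weeks, which differs from the age at which the study took the livers. Of the 15 arrays, 4 held control RNA, 5 held RNA from group T and 6 from group G, and both slides carried every group. The control arrays numbered 3 and 4 share an RNA code, as do the T arrays numbered 4 and 5, and each pair was averaged, to mouse C3 and mouse T4, which gives 3, 4 and 6 mice. Nothing in the records shows that the other arrays come from separate animals, so p-values measure the spread between these samples.

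Ly6 proteins are small, disulfide-rich proteins that are mostly tethered to the outer cell membrane by a lipid anchor, and many of their genes lie in 1 cluster on mouse chromosome 15. Several serve as surface markers. Ly6a is Sca-1, used to sort blood stem cells and also found on endothelium, and Ly6c1 encodes a form of Ly-6C found on endothelial cells. Interferons are known to induce Ly6a, Ly6c1 and Ly6e.

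The first 30 of the 60 bases of each probe that was well above background in all groups are shown because they say which stretch of each transcript was measured, and because the Ly6c1 probes read different stretches of 1 gene. Positions are those the files give on build mm9 and span the whole probe. No pair of member probes shared a run of more than 8 bases. Whether a probe also binds transcripts of close relatives such as Ly6c2 was not tested.
Ly6a, chr15:74825553-74825612, minus strand: tatgagttatagaagctccaaggtgggagt
Ly6c1, chr15:74875495-74875554, minus strand: tattatagtatcaccatccacacataagta
Ly6c1, chr15:74877785-74877844, minus strand: agcagttacctgccgcgcctctgatggatt
Ly6d, chr15:74592551-74592610, minus strand: caggacaggaagatgtggcttgtgtcccag
Ly6e, chr15:74789592-74789651, plus strand: tatcattgtacccaccttgtactctgttca

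Ly6a stood higher in every control liver than in any DEN-treated liver, and the control livers differed widely among themselves. On the log2 scale of normalized intensity, the control livers read 12.95 (C1), 10.05 (C2) and 8.26 (C3). The livers of group T read 7.44, 6.97, 7.61 and 7.01, and those of group G read 7.30, 7.49, 7.01, 7.52, 7.46 and 7.46. The lowest control liver thus lay above the highest of the 10 DEN-treated livers, while groups T and G overlapped. The probe was well above background on all 15 arrays, and the arrays that share an RNA code read 8.18 and 8.34 for mouse C3 and 6.98 and 7.04 for mouse T4.

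The group means of Ly6a were 10.42 ± 2.37 (SD, n = 3) in C, 7.26 ± 0.31 (SD, n = 4) in T and 7.37 ± 0.19 (SD, n = 6) in G. The difference was -3.16 (standard error 0.73) for T minus C and -3.05 (standard error 0.68) for G minus C, both log2. Its size rested on the control livers: without mouse C1 these became -1.90 and -1.78, and without mouse C3 they became -4.24 and -4.13. Within slide 1 the T minus C value was -2.14 and within slide 2, which held mouse C1, it was -3.28. The G minus C values were -1.79 and -3.23 in the same order. Group G did not pass the test against group T, with a difference of 0.12 (standard error 0.62, limma adjusted p = 0.969). In whole liver, fewer cells of a type and less RNA per cell cannot be told apart.

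**Figure D1:**
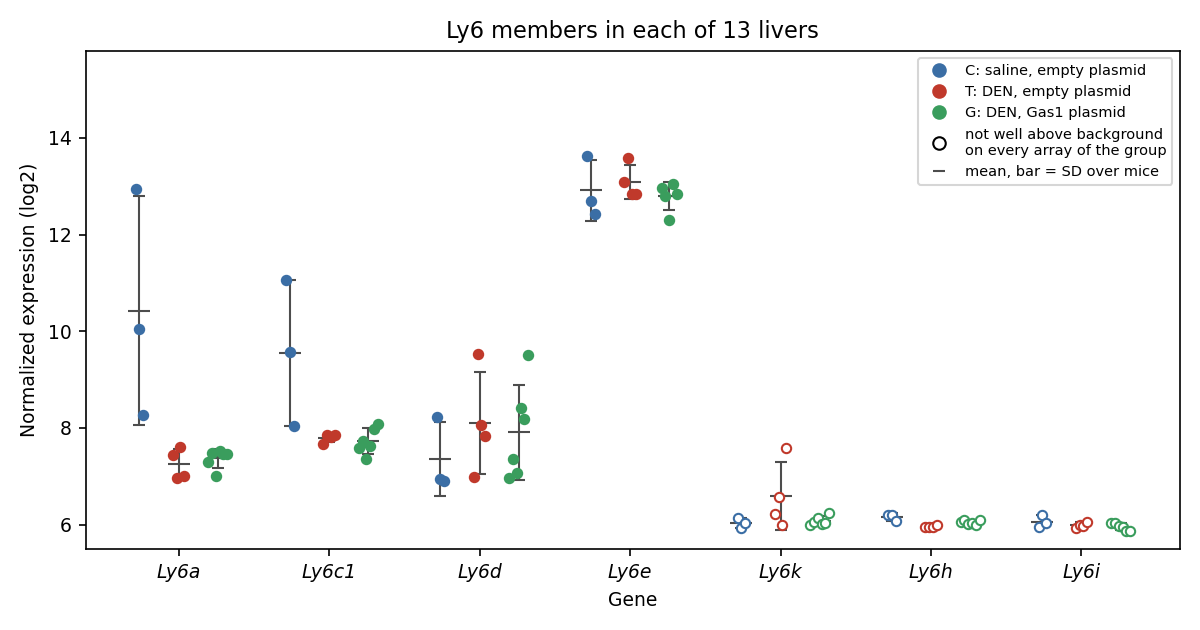
Normalized expression (log2, vertical axis) of the 7 Ly6 members with a probe, 1 point per mouse, coloured by group, with the group mean and SD as bars and open points where the probe was not well above background on every array of the group. The control livers for Ly6a sit at 12.95, 10.05 and 8.26, all above the 10 DEN-treated livers, while Ly6h and Ly6i stay near 6 in all groups.

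Ly6c1 followed the same order of control livers. Averaged over its probes, it read 11.06 (C1), 9.57 (C2) and 8.03 (C3) in group C, and 7.67, 7.86, 7.82 and 7.85 in group T. In group G it read 7.58, 7.72, 7.35, 7.63, 7.98 and 8.07. Mice C1 and C2 stood above all DEN-treated mice, whereas mouse C3 lay below the highest mouse of group G.

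The means of Ly6c1 were 9.55 ± 1.51 (SD, n = 3) in C, 7.80 ± 0.09 (SD, n = 4) in T and 7.72 ± 0.27 (SD, n = 6) in G, and T minus C was -1.75. It was -0.9998 without mouse C1, -1.74 without mouse C2 and -2.51 without mouse C3, and within the slides it was -0.91 and -1.79. Group G against group C gave -1.83 (standard error 0.44, limma adjusted p = 0.0993), which did not pass the test. Without mouse C3 it was -2.59 and passed (limma adjusted p = 0.00776), whereas it was -1.08 without mouse C1 (limma adjusted p = 0.263) and -1.82 without mouse C2 (limma adjusted p = 0.221). Group G against group T gave -0.08 (standard error 0.40, limma adjusted p = 0.969).

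The Ly6c1 probes ran in the same direction with different sizes. The brighter one read 13.91, 11.47 and 9.63 in mice C1, C2 and C3 and between 8.47 and 9.55 in the DEN-treated mice, so its groups did not overlap. The dimmer one read 8.21, 7.67 and 6.43 in the control livers, and mouse C3 lay within the DEN-treated range there. T minus C was -2.53 for the brighter and -0.98 for the dimmer probe.

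Across the 13 mice, Ly6a and Ly6c1 had a Pearson correlation of 0.977, given as a description since the mice share slides and normalization. Without mouse C1 it was 0.915, and the rank correlation over all mice was 0.555. Within the 10 DEN-treated mice, taken alone after values were seen, the Pearson correlation was 0.259 and the rank correlation 0.0788.

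**Figure D2:**
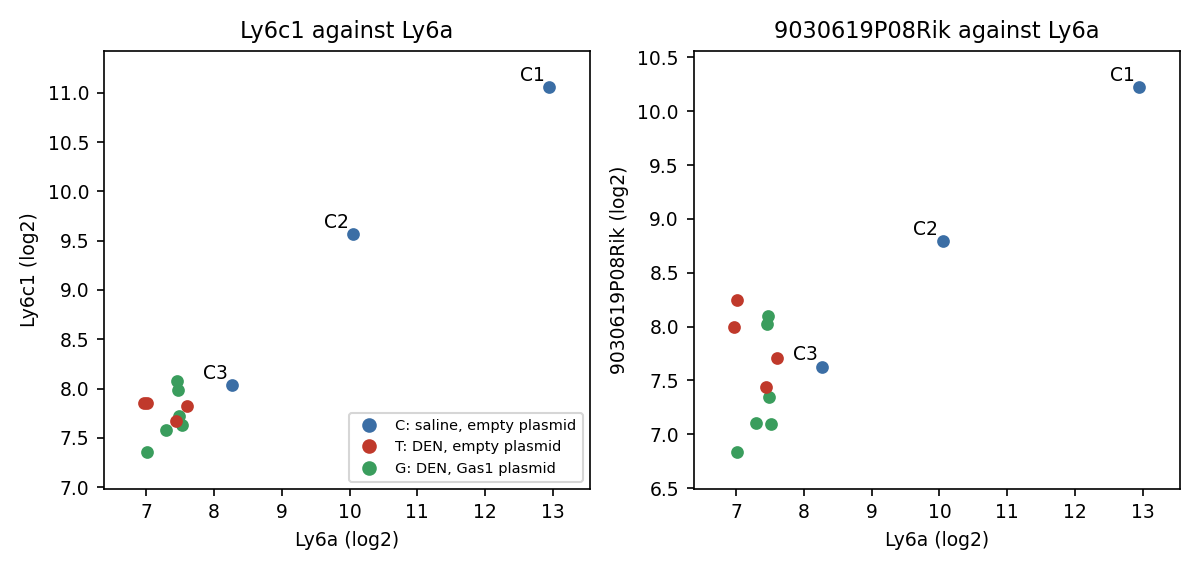
Ly6c1 (left) and the Ly6-like gene 9030619P08Rik (right) against Ly6a, all as log2 normalized expression, with 1 point per mouse coloured by group and the control livers named. Mice C1 and C2 stand apart from the rest on both panels, while mouse C3, at 8.26 for Ly6a, lies next to the DEN-treated mice.

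Between control livers, Ly6a had the largest SD of 7945 genes that were well above background on all arrays, 2.37 against a median of 0.13 over those genes. Ly6c1 ranked 4 with 1.51, and Ly6d ranked 54 with 0.76. In group T the SD of Ly6a was 0.31 (rank 822) and in group G it was 0.19 (rank 2814). Leaving out mouse C1 brought the Ly6a control SD to 1.26. Mouse C1 exceeded the next mouse by 2.90 for Ly6a and by 1.49 for Ly6c1, which were ranks 10 and 30 of such gaps over the same genes. Gaps above 1 were led by mouse C1 in 5 genes, by mouse T2 in 30 and by mouse G6 in 15, so that a wide gap led by 1 liver was not limited to mouse C1.

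**Figure D3:**
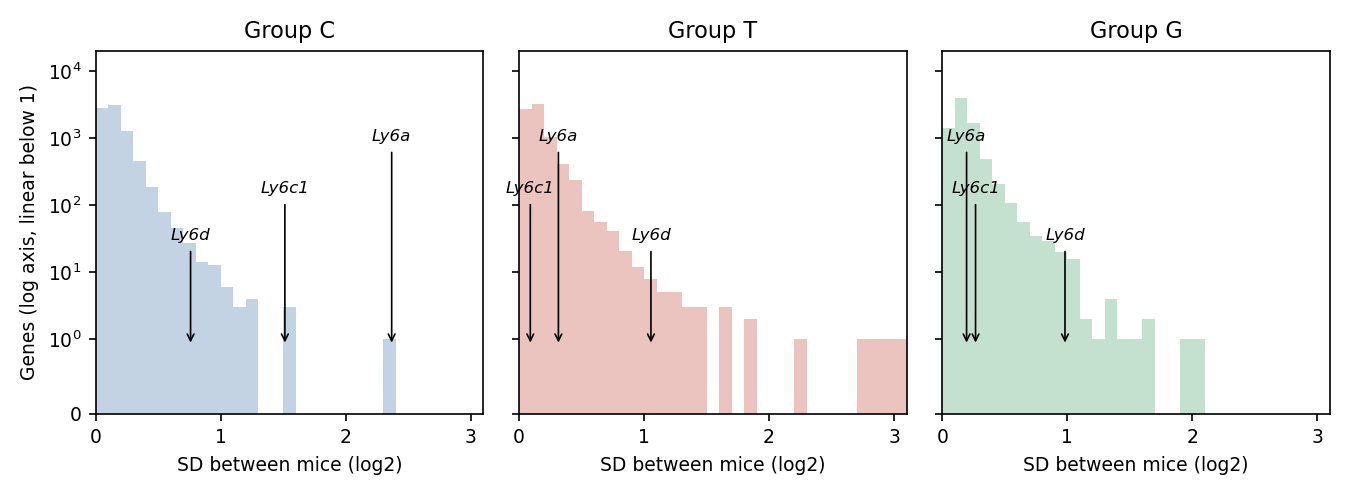
Number of genes (vertical log axis, linear below 1) by SD between mice on the log2 scale, for the 7945 genes well above background on all arrays, in groups C, T and G, with arrows at Ly6a, Ly6c1 and Ly6d. Ly6a marks the right end in group C at 2.37 and has an SD of 0.31 in group T (rank 822) and 0.19 in group G (rank 2814).

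Ly6d, a marker of early B-lineage cells that squamous epithelia also carry, varied in all 3 groups. It read 8.23, 6.95 and 6.90 in group C, and 6.98, 9.52, 8.07 and 7.84 in group T. Group G read 6.96, 7.35, 7.07, 8.41, 8.18 and 9.52. Its groups overlapped, and its highest values, in mice T2 and G6, belonged to different treatments. The SD was 1.06 in T (rank 28 of 7945) and 0.98 in G (rank 33). T minus C was 0.75, and 0.27 without mouse T2, with 1.71 within slide 1 and 0.11 within slide 2. G minus T was -0.19 (standard error 0.55, limma adjusted p = 0.940), and G minus C was 0.56 (standard error 0.61, limma adjusted p = 0.749).

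Ly6e, an interferon-induced member made in many cell types, was well above background on all 15 arrays. It read 13.62, 12.69 and 12.43 in group C and 13.09, 13.58, 12.83 and 12.85 in group T. In group G it read 12.97, 12.80, 12.30, 13.04 and 12.85, and the spot of mouse G4 was flagged as an outlier and left missing. All groups overlapped. T minus C was 0.18, and it was 1.20 (standard error 0.30) under median scaling, where the median of all genes was 0.12. It was 0.53 without mouse C1, 0.07 without mouse C2, -0.07 without mouse C3 and 0.01 without mouse T2, and 0.63 within slide 1 and -0.09 within slide 2, so its direction was not settled. G minus T was -0.30 (standard error 0.24, limma adjusted p = 0.711) and G minus C was -0.12 (standard error 0.26, limma adjusted p = 0.893).

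The remaining members were near background. Ly6k, known from testis, was well above background on 4 arrays, 3 of group T and 1 of group G. It read 6.14, 5.92 and 6.04 in group C and 6.21, 6.57, 5.99 and 7.59 in group T, with mouse T4 the highest, and 5.99 to 6.24 in group G. The 3 arrays of group T belong to mice T2 and T4, and mouse T3 lay below mice C1 and C3, so no fold is given. G minus T was -0.51 (standard error 0.23, limma adjusted p = 0.447), and -0.18 without mouse T4. T minus C was 0.55, and 0.22 without that mouse.

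Ly6h, known from brain, was well above background on 3 arrays with 1 probe and on none with the other. Its gene value read 6.21, 6.20 and 6.07 in group C, 5.95 to 5.99 in group T and 5.99 to 6.09 in group G. The 1 control array above background was of mouse C3, the lowest control, and no array of group T was, so no fold is given. G minus T was 0.09 (standard error 0.04, limma adjusted p = 0.474) and G minus C was -0.11 (standard error 0.04, limma adjusted p = 0.291). Ly6i, known from myeloid cells, rose clear of background on 0 of 15 arrays, so its values between 5.87 and 6.20 carry no order.

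Over all genes, 2.37% were called between T and C at a limma adjusted p of 0.05, and 2 of the 7 members, Ly6a and Ly6h, were among them, both lower in T. Because the comparison was used to choose Ly6a, nothing is read from this count, and it moved with single mice: it was 3 without mouse C3, 1 without mouse C1 or G6, and 0 without any one of mice C2, T1, T2, T3, T4, G1, G2, G3, G4 or G5. Between G and T, 0.132% of genes were called and 0 members, with 1 member at an unadjusted p under 0.05 in limma and 1 by the methods' t-test. In limma, 2379 of all 22032 genes had such a p. Between G and C, 0.427% were called and 0 members, with 3 at an unadjusted p under 0.05 in limma and 3 by the methods' t-test. The 3 in limma were Ly6a, Ly6c1 and Ly6h, beside 2921 of all 22032 genes. Without mouse C3, 2 members were called between G and C, Ly6a and Ly6c1, beside 202 of 22030 genes. With all mice, 94 of 22032 genes were called. Because the control livers were used to choose Ly6a, nothing is read from these counts either. Median differences of the 7 members were -0.08 for T minus C, -0.08 for G minus T and -0.11 for G minus C, beside 0.01, -0.01 and 0.00 over all genes. The first of these medians is the value of Ly6i and the last that of Ly6h, both near background, so nothing is read from them.

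**Figure D4:**
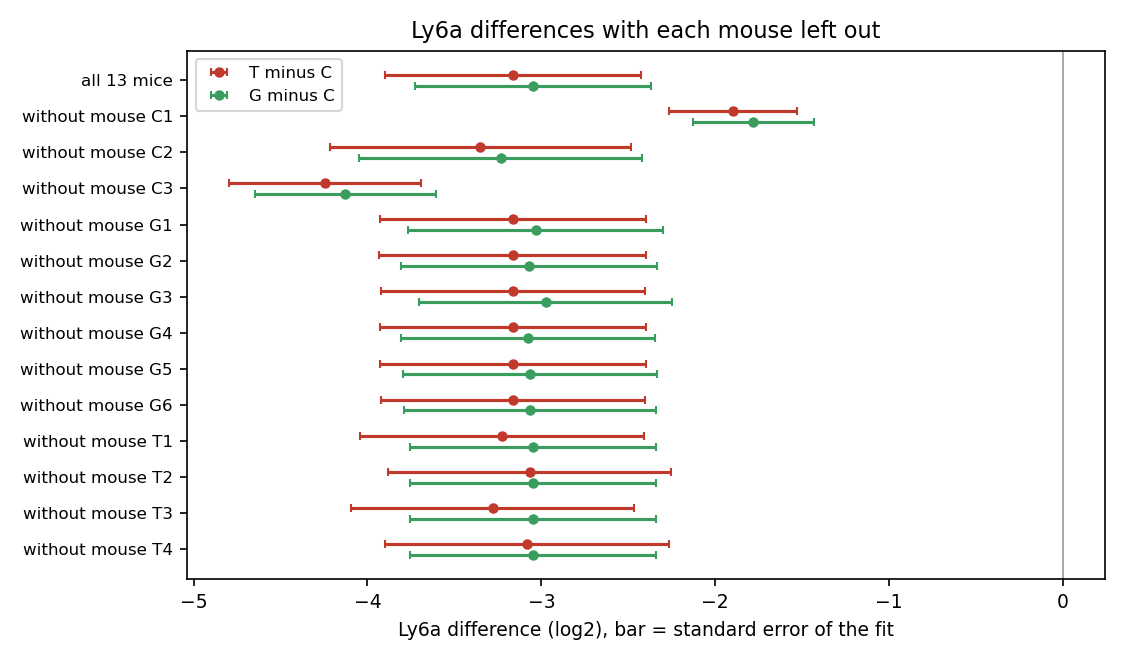
Ly6a difference (log2, horizontal axis) of groups T and G from group C with all 13 mice and with each mouse left out in turn, points with the standard error of the fit as bars. All values lie below 0, between -4.24 and -1.78, and the ends of that range come from leaving out mice C3 and C1.

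Probes around Ly6a were examined because many Ly6 genes are neighbours. This window was chosen after values were seen. Within 700 kb of the Ly6a probe lay 34 probes of 30 genes, and 8 probes were well above background on all arrays. Of these 8, 3 had mouse C1 highest by over 1 on the log2 scale: Ly6a, the brighter Ly6c1 probe at 49.9 kb and 9030619P08Rik at 434.9 kb, a gene with a Ly6-like product. All control livers lay above all DEN-treated livers in 3 of the 8: Ly6a, the brighter Ly6c1 probe and Top1mt at 662.1 kb. The share of all probes that separate in this way was not counted, and Ly6a was chosen on these livers, so nothing is read from this number. Top1mt, which is on no list used here, read 9.36, 9.46 and 9.46 in mice C1, C2 and C3. Its highest DEN-treated value was 9.24.

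9030619P08Rik read 10.22, 8.79 and 7.63 in mice C1, C2 and C3, in the order of Ly6a. It read 7.44 to 8.25 in group T and 6.83 to 8.10 in group G, so mouse C3 lay inside the DEN-treated range. Ly6e, 36.0 kb from Ly6a on the other side, had mouse C1 highest by 0.03, and Gpihbp1, the capillary anchor of lipoprotein lipase at 602.9 kb, read 8.63 in mouse C1 and 9.17 in mouse C2. The high reading of mouse C1 was thus uneven among neighbours.

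**Figure D5:**
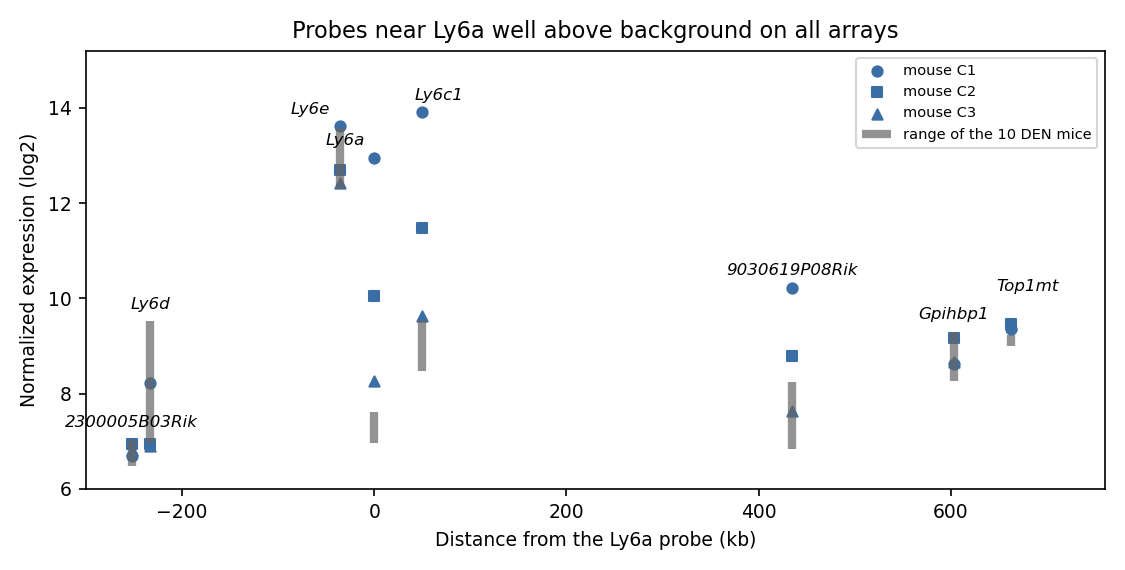
Normalized expression (log2, vertical axis) of the 8 probes within 700 kb of the Ly6a probe that were well above background on all arrays, by distance in kb, with the control livers as points and the range of the 10 DEN-treated mice as grey bars. Mice C1 and C2 lie above the grey bars for Ly6a, Ly6c1, 9030619P08Rik and Top1mt.

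Outside the 9 members, 27 of 36 listed Ly6/uPAR domain genes had a probe, and none passed the limma test in any comparison. At an unadjusted p under 0.05 in limma were 2, 1 and 3 for T minus C, G minus T and G minus C. Over all 22032 genes, 4446, 2379 and 2921 had such a p in the same order. Tex101, a testis protein of this family, had the lowest p for T minus C at -0.80 (standard error 0.20, limma adjusted p = 0.0551), followed by Cd59a, an inhibitor of complement, at -0.34 (standard error 0.10, limma adjusted p = 0.0865). For G minus T the lowest were Tex101 at 0.46 (limma adjusted p = 0.347) and Lypd5 at -0.17 (limma adjusted p = 0.499). The median for T minus C was 0.00, beside 0.01 over all genes. Of the 27 genes, 11 were well above background on no array and 3 on all arrays, so these results are limited by signal.

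Interferon-induced genes were listed because Ly6a, Ly6c1 and Ly6e belong among interferon targets. Of 25 genes, 1 passed the test for T minus C, Oas1a, a sensor of viral RNA, at 0.99 (standard error 0.21, limma adjusted p = 0.0363). Of all genes, 2.37% passed it, so nothing is read from this count. Mx1 was next at 0.23 (limma adjusted p = 0.0562), and other genes of the list differed in either direction. None passed for G minus T or G minus C. At an unadjusted p under 0.05 in limma were 5, 5 and 3 for T minus C, G minus T and G minus C. Beside these stood 4446, 2379 and 2921 of all 22032 genes. The lowest for G minus T were Mx1 at -0.14 (limma adjusted p = 0.298) and Ddx58 at -0.16 (limma adjusted p = 0.341). Mouse C1 was the highest of 13 mice in 10 of the 25 genes (40.0%), and in 2478 of the 20431 genes with no missing value (12.1%). Summed over 24 genes, the normalized intensity was 4648 to 8159 in C, 5717 to 6452 in T and 4912 to 6121 in G, with mouse C1 at 8159. The part of this in the Ly6a values was not tested.

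Marker lists of cell types were summed per mouse, and mouse C1 was not the highest for any of them. Ranked from the highest summed intensity over 13 mice, it was 11 for endothelial, 12 for neutrophil, 7 for monocyte and macrophage, and 10 for B and plasma cell markers. It was 3.5, a tie, for T and NK cell markers and 2 for hepatocyte markers. The summed endothelial level was 2809 to 3324 in C, 2510 to 3654 in T and 3136 to 3521 in G, so the groups overlapped. The monocyte and macrophage level was 1955 to 2549, 1999 to 2808 and 2010 to 3006 in the same order. The neutrophil level was 857.1 to 1021, 901 to 1948 and 811.1 to 1029, and the T and NK cell level was 1285 to 1500, 1344 to 1570 and 1281 to 1536. Bright genes weigh most in these sums: in mouse C1, Cd5l read 925 and Clec4f 560.1 of 2549. Well above background on all arrays were 2 of 10 neutrophil, 4 of 13 monocyte and macrophage and 6 of 11 endothelial genes. Ccr2, F13a1 and Chi3l3 were so on 1, 3 and 2 arrays. The part of cell content in the Ly6 values was not tested.

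The summed hepatocyte and B and plasma cell levels did separate groups. Summed over 9 genes, the hepatocyte level was 575000 to 604900 in C, 382300 to 545200 in T and 443300 to 535800 in G, so every control liver lay above every DEN-treated liver, as for Ly6a. The control livers were close to each other there, at 576000 (C1), 604900 (C2) and 575000 (C3). Alb and Ttr make up most of this sum, at 299500 and 118300 in mouse C1. Alb also read 299500 in mice C2 and T1. Quantile normalization gives equal values to equal ranks, so closeness in such bright genes need not measure hepatocyte content and is not set against the Ly6a spread. The listed hepatocyte genes ran both ways for T minus C. Ttr, Ass1, Alb, Cyp2e1, Cps1 and F2 were lower. Pck1 (1.22), Apoa1 (0.55), Hnf4a (0.37) and Tat (0.23) were higher, and none of the higher ones passed the test. The B and plasma cell level was 5103 to 7173 in C, 8022 to 9141 in T and 5676 to 7541 in G, so every liver of group T lay above the other groups. Xbp1 makes up most of that sum, at 5725 of 7021 in mouse C1. The part of either list in the Ly6 values was not tested.

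Among these lists, Emr1, the macrophage marker F4/80, rose in T against C by 0.31 (standard error 0.06, limma adjusted p = 0.0267). It was well above background on 13 of 15 arrays. The monocyte and macrophage list ran both ways for T minus C. Cd68, Fcgr1, Ccr2 and Clec4f were lower, the other listed genes were higher, and none but Emr1 passed the test. Hepatocyte genes Ttr, a carrier of thyroid hormone, and Ass1, of the urea cycle, fell by 1.00 (limma adjusted p = 0.00425) and 0.60 (limma adjusted p = 0.0112). No gene of the neutrophil, B and plasma cell, T and NK cell or endothelial lists passed limma's test in any comparison. The neutrophil genes S100a9 and S100a8 had the lowest p of their list for T minus C, at 1.36 (limma adjusted p = 0.130) and 0.58 (limma adjusted p = 0.188), and for G minus T, at -0.92 and -0.44.

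The other listed genes with the lowest p did not pass the test and are given as log2 differences. For T minus C these were Cd68 (-0.25) of macrophages, Cd79a (0.21) and Xbp1 (0.51) of B and plasma cells, Cd3g (-0.23) and Cd3e (0.33) of T cells, and Lyve1 (0.25) and Eng (-0.30) of endothelium. For G minus T they were Chi3l3 (-0.42) and Emr1 (-0.10), Xbp1 (-0.37) and Sdc1 (-0.18), Cd3g (0.17) and Cd4 (-0.12), Eng (0.20) and Stab1 (0.23), and the hepatocyte genes Ttr (0.60) and Apoa1 (-0.36). The adjusted p of these in limma ranged from 0.0563, for Ttr, upward.

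Genes most like Ly6a over the 13 mice were searched among 10532 symbols. The highest Pearson correlations outside the family belonged to Myl12b (0.923), a myosin light chain, Zc3hc1 (0.922), Adamts2 (0.917), a procollagen-processing protease, Pnpla5 (0.915), a lipase-like protein, and Creg2 (0.910). Mouse C1 exceeded the next mouse by only 0.13 to 0.45 in these genes, against 2.90 for Ly6a. Without mouse C1, 1 of the 5, Creg2, stayed among the highest 5, and none was among the highest 5 by rank correlation.

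Gas1 itself was checked against the labels. It read 6.53 ± 0.20 (SD, n = 3) in C, 6.53 ± 0.09 (SD, n = 4) in T and 6.61 ± 0.11 (SD, n = 6) in G, and G minus T was 0.08 (standard error 0.08, limma adjusted p = 0.765). The array therefore did not separate the Gas1 group by this probe, and "group G" is used as the label gives it.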

How the data were processed

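The authors deposited the scanner intensity of each array, extracted by Feature Extraction without normalization between arrays, and a table of log2 values made by normexp background correction and quantile normalization. The log2 values used here were rebuilt from the deposited intensity with normexp (offset 50) and quantile normalization over 59305 spots that are not controls. Outlier-flagged spots (218 to 3692 per array) were set to missing, probes were centred and averaged per gene symbol, and 99.0% of gene values lay within 0.05 of the authors' table. No spot was saturated, and 15707 to 29765 spots per array were well above background. Arrays give no read depth, so the number of mice limits the precision.

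Differences were fitted with limma 3.58.1 in R 4.3.3 over 22032 symbols in 13 mice with 1 mean per group, with Benjamini-Hochberg adjustment over all symbols. The members and lists were chosen with earlier results of these data known. Named were all members, listed genes called in a comparison or with the 2 lowest p for T minus C or G minus T, and the 5 genes most like Ly6a. Alternatives covered normalization, offset, flags, probe averaging, a filter on dim genes, separate arrays, slide, replicate number, the methods' t-test and leaving out each mouse. Scripts were tested on simulated data.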

Additional observations from a re-analysis of the deposited data

Results flagged for a closer look

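Over 14 groups of 4 or more mice, 1 member value stood far from the others: Ly6h in mouse T4, at 5.99 on the log2 scale, had a gap to its nearest neighbour that was 0.876 of the range of group T, above Dixon's critical value for a group of 4. All Ly6h values of group T were below the level called well above background. Chance flags about 1 in 20 such groups. Group C, with 3 mice, was too small for this rule, so the wide Ly6a spread there was not assessed by it.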

How the results depend on the processing

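Ly6a kept its direction in T minus C and G minus C under all alternatives run, -3.73 to -2.28 and -3.59 to -2.22 across 13 processing settings, and -4.24 to -1.90 and -4.13 to -1.78 with 1 mouse left out. G minus T stayed uncalled (limma adjusted p 0.920 to 0.997). The 2 members called for T minus C became 0 under cyclic loess and under the processed signal scaled to the 75th percentile. By the methods' t-test they also became 0, but that test called 0 of all 22000 genes it covered there. The member count was 1 with offset 16, a plain mean of probes, slide as a block, the replicate block, and trend with robust eBayes. It was 0 to 3 with 1 mouse left out. The 0 members for G minus C became 1 with offset 16, with dim genes left out and with slide as a block, and 0 to 2 with 1 mouse left out. Member counts against group C cover Ly6a, so nothing is read from them. Listed genes called for T minus C, 4 in all, became 19 under median scaling, 2 under cyclic loess, and 0 under the processed signal and by the methods' t-test. They became 17 with separate arrays, which counts repeat arrays of 1 RNA code as mice, 9 with the replicate block, and 1 to 6 with 1 mouse left out. The counts over all genes under these settings are given below, and nothing is read from the list counts. The control SD of Ly6a was 1.26 to 3.32 with 1 control left out. Of the 5 genes most like Ly6a, 0 were shared by rank correlation and 1 without mouse C1, an alternative chosen after seeing the data.

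Directions near 0 turned in a few members. Ly6e for T minus C was 1.20 under median scaling, -0.0886 within slide 2, and -0.0665 to 0.527 with 1 mouse left out. Ly6e for G minus C was 0.72 under median scaling, 0.00103 with separate arrays, 0.0305 within slide 1, and -0.36 to 0.23 with 1 mouse left out. Ly6k for G minus C was -0.0803 under cyclic loess, -0.53 under the processed signal, -0.0765 with the replicate block, -0.0886 within slide 2, and -0.0111 to 0.0974 with 1 mouse left out. Ly6d was -0.0362 for G minus C within slide 2, and -0.56 to 0.28 for G minus T with 1 mouse left out, and Ly6i for G minus T was 0.0158 within slide 2. The cause was not tested. Over all genes, 523 were called for T minus C, 2876 under median scaling, 186 under cyclic loess, 57 under the processed signal and 0 by the methods' t-test. The count was 1949 with separate arrays, 1606 with the replicate block, 814 with slide as a block and 95 to 746 with 1 mouse left out. Median scaling moved the median T minus C of all genes to 0.12 and the processed signal to -0.404. Replicate numbers did not pair the arrays: the 13 same-numbered pairs had correlations of -0.31 to 0.27, and 2 of 15 arrays correlated best with their own number. Members near background, Ly6h, Ly6i and Ly6k, are limited by signal.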
